A study of Arvicanthis niloticus with 28 samples.

Results

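Lipids reach and leave the wall of retinal capillaries through a small set of receptors and transporters, of which 9 are described here: the receptors Lrp1, Vldlr, Lrp8 and Scarb1, the cholesterol exporters Abca1 and Abcg1, the phospholipid and bile salt transporters Abcb4 and Abcb11, and the carrier Pctp. They were taken by name, and all 9 stand among the 18970 genes in the tables. The RNA came from the isolated retinal vasculature of 28 wild-type, untreated Nile rats, a diurnal rodent that develops diabetes on an energy-rich diet, with 1 library per rat. The pre-dropout group held 4 rats with 17 to 18 acellular capillaries per mm2, all male (T353M, T389M, T391M and T407M), and the normal group held 24 rats below 16 per mm2, with 8 males and 16 females. Random blood glucose lay between 57.4 and 443 mg/dL in pre-dropout rats and between 52 and 422 mg/dL in normal rats, and 2 pre-dropout and 3 normal rats were above 200 mg/dL. The colony was fed either a high-fiber or a high-caloric diet, but neither the diet nor the age of a rat is in its labels, so group, age and diet cannot be told apart here. Acellular capillaries are empty basement membrane tubes left by lost endothelial cells. The comparison asks which genes differ between the normal range and densities just under 18 per mm2, the study's cutoff for early dropout.

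Plasma lipoproteins carry cholesterol and phospholipids that cells take up by receptors of the LDL receptor family (Lrp1, Vldlr, Lrp8) or, from high-density lipoprotein, by Scarb1. Excess cholesterol leaves the cell through Abca1, which loads lipid-poor apolipoprotein, and Abcg1, which loads mature high-density lipoprotein, and both are induced by the oxysterol-sensing LXR receptors. Lrp8 and Vldlr also serve as receptors for reelin in neurons, and mice without Vldlr grow abnormal vessels under the retina. Abcb4 moves phosphatidylcholine and Abcb11 bile salts into bile in the liver, while Pctp transfers phosphatidylcholine between membranes in the cytosol. These roles are known from mouse and human.

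The 9 genes spanned a wide range of levels. By transcripts per 1000000 (TPM), which are scaled for transcript length and so allow genes to be compared, Scarb1 had a median over the 28 rats of 40.9 TPM (lowest 20.7, highest 114.8) and Lrp8 of 40.9 TPM (8.41 to 100.3). Scarb1 exceeded Lrp8 in 18 rats and lay below it in 10, so these 2 did not separate. Abcb4 followed with a median of 20.3 TPM, between 0.0266 and 63.7 TPM, and Lrp1 with 15.9 TPM, between 6.71 and 46.8 TPM. Abcb4 was above Lrp1 in 16 rats and below it in 12, which again gave no clear order. Abcg1 had a median of 10.97 TPM and lay above Abca1, with 4.16 TPM, in 25 of 28 rats. Vldlr (median 3.17 TPM) was below Abca1 in 14 rats and above it in 13. Pctp had a median of 1.40 TPM, and Abcb11, the bile salt export pump, was listed at 0 in 17 of the 28 rats and reached 10.6 TPM in 1. Scarb1 and Lrp8 thus stood in the upper part of the tables, above 83.9% of all genes by median TPM.

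**Figure D1:**
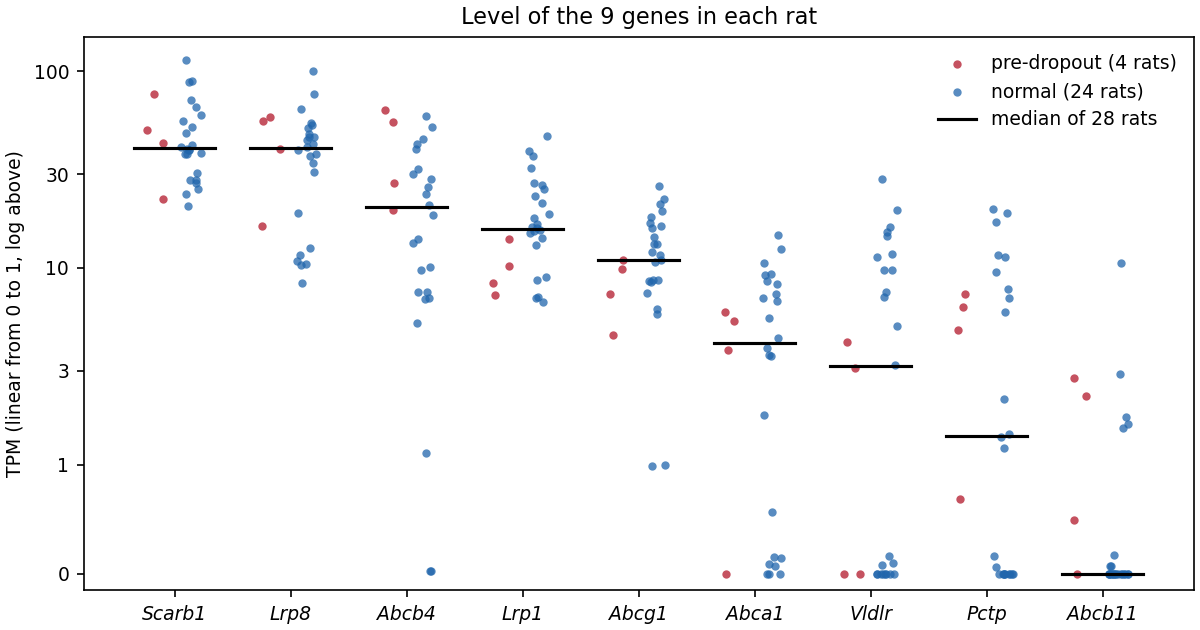
TPM of the 9 genes in each of 28 rats (points; pre-dropout rats to the left of normal rats for each gene), with the median over the 28 rats as a black line; the axis is linear from 0 to 1 and logarithmic above. Scarb1, Lrp8, Abcb4, Lrp1 and Abcg1 had counts in every rat, whereas Abca1, Vldlr, Pctp and Abcb11 were at 0 in some rats.

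The tissue label was checked against marker lists. Endothelial genes were high in every library, with a median of 502 TPM for Pecam1, the platelet endothelial adhesion molecule, and 627 TPM for Cdh5, the endothelial cadherin, and so were the pericyte genes Pdgfrb (103 TPM) and Rgs5 (6217 TPM). Glial and rod RNA was also present in all 28 libraries, with medians of 184 TPM for Rlbp1, 594 TPM for Glul and 77.6 TPM for Sag. The bipolar cell gene Grm6 was counted in 21 rats, with a median of 4.93 TPM. By list, a rat had counts for 8 to 10 of the 10 pericyte and smooth muscle genes, of which Tagln and Cnn1 had a median of 0 TPM. It had counts for 4 to 9 of the 9 rod genes and for 6 to 15 of the 15 inner retinal neuron genes. Medians were 0 TPM for the microglial genes Aif1 and Cx3cr1 and for Rpe65 and Lrat of the pigment epithelium, but other genes of these lists were counted: at the median, a rat had counts for 5 of the 11 microglia and macrophage genes and for 2.5 of the 10 pigment epithelium genes. Summed over the list, the microglia and macrophage level was 6.15 to 38.2 CPM in pre-dropout rats and 0.804 to 78.1 CPM in normal rats, and the pigment epithelium level was 7.13 to 358 CPM in pre-dropout rats and 0 to 122 CPM in normal rats. In addition, the hemoglobin gene Hba-a2 had 1353 TPM. Summed over the endothelial list, the level was 7012 to 14204 counts per 1000000 (CPM) in pre-dropout rats and 4059 to 16934 CPM in normal rats. Summed over rod and inner retinal neuron markers, it was 449 to 1563 CPM in pre-dropout rats and 333 to 5461 CPM in normal rats. None of the 8 lists differed between the groups at an adjusted p under 0.05 (exact permutation test over all 20475 splits, two-sided, Benjamini-Hochberg over the 8 lists). The smallest p was that of erythrocyte genes, whose mean log2 CPM was 4.205 ± 0.54 in pre-dropout rats and 3.03 ± 0.90 in normal rats (SD, n = 4 and 24, exact p = 0.0182, adjusted p = 0.145).

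Libraries held between 153108 and 10029200 counts, 2 of them under 1000000. A count of 0 allows up to 3 counts by counting error alone. Per 1000000 counts of the library total, before any scaling between libraries, that is 0.299 to 19.6 by library. In addition, the ratio of count to TPM shows that the effective transcript lengths used for the tables fell into 2 sharply separate classes, here called A and B. The difference was small. In the relative length of the 88 shortest of 874 genes, the gap was 0.0106 log2 units. The range was 0.00058 within class A and 0.0032 within class B. Class A held 16 libraries, all 4 pre-dropout and 12 normal, and class B held 12, all normal. The labels do not say what the classes are. Values within class A are therefore given beside the pooled ones in the comparison of density groups.

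Between pre-dropout and normal rats, Lrp1 showed the most uniform difference of the 9 genes, and Abcb4 stood above the normal median in all 4 pre-dropout rats, but no member passed the test. Of 13800 genes tested with edgeR's quasi-likelihood test, 0 passed both limits of a call, an adjusted p below 0.05 with a change over 2-fold (0%), and 2.86% had an unadjusted p under 0.05. Of the 9 members, 0 were called and 1, Lrp1, had an unadjusted p under 0.05. The median log2 fold change of the 9 was -0.04, with 3 positive and 6 negative, against -0.13 over all genes, of which 41.1% were positive. By other tools DESeq2 called 7 genes and limma-voom 4 over all genes, and edgeR called 50 with the level of endothelial markers as a covariate and 1 with that of neuron markers, with no member among them.

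Lrp1, a large endocytic receptor that clears lipoprotein remnants and proteases, had 132, 106, 115 and 94.3 CPM in the pre-dropout rats T353M, T389M, T391M and T407M, against a lowest value of 77.3, a median of 184 and a highest of 416 CPM in normal rats. All 4 pre-dropout rats were below the normal median, 18 normal rats lay above their range, 4 inside it and 2 below it, so the groups overlapped. The log2 fold change was -0.94 (SE 0.37, unadjusted p = 0.0166, adjusted p = 0.9999 by edgeR). It was -0.69 among the 12 males alone (unadjusted p = 0.0918) and -0.79 among the 16 libraries of class A (unadjusted p = 0.0311, both by edgeR). Leaving out each pre-dropout rat in turn gave -0.99 to -0.82, with unadjusted p of 0.0308 to 0.0645 by edgeR. The pre-dropout rats were also uniform among themselves, with a mean of 112 ± 15.9 CPM (SD, n = 4) against 208 ± 91.5 CPM in normal rats (n = 24).

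Vldlr, which takes up triglyceride-rich lipoproteins, had 0, 0, 11.1 and 17.6 CPM in the pre-dropout rats T353M, T389M, T391M and T407M. Normal rats had a median of 13.7 CPM, between 0 and 89.1 CPM, and 16 of the 24 had a count. The log2 fold change of -1.62 had an SE of 1.64, as large as the difference itself, and it was -1.19 within class A. Lrp8, the second reelin receptor, had 161, 156, 199 and 65.2 CPM in the same pre-dropout rats, against a median of 127 CPM in normal rats, between 27.5 and 354 CPM. Its log2 fold change was 0.14 (SE 0.45), and it was negative with sex as a covariate (-0.12) and in males alone (-0.16) and 0.31 within class A, so it has no direction. Scarb1, the receptor for high-density lipoprotein, had 170, 129, 133 and 69.0 CPM in the pre-dropout rats, against a median of 101 CPM in normal rats, between 45.3 and 405 CPM. Its log2 fold change was -0.04 (SE 0.39), with 0.20 within class A and -0.62 in males alone.

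Both cholesterol exporters overlapped between the groups. Abca1 had 16.6, 20.2, 12.6 and 0 CPM in the pre-dropout rats T353M, T389M, T391M and T407M, against a median of 13.6 CPM in normal rats, between 0 and 42.1 CPM, with a log2 fold change of -0.37 (SE 1.25). Without T407M, the pre-dropout rat at 0, it was 0.13. Among the 12 normal rats of class A, to which all pre-dropout libraries belong, the median was 22.1 CPM, and all 4 pre-dropout rats lay below it. The log2 fold change within class A was -0.80 (SE 0.81). Abcg1 had 17.6, 56.6, 44.9 and 39.0 CPM in the pre-dropout rats, against a median of 53.2 CPM in normal rats, between 4.29 and 109 CPM, with a log2 fold change of -0.50 (SE 0.55). Without T353M, the lowest of the 4, the value was -0.21, and within class A it was -0.33.

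Abcb4, the phosphatidylcholine transporter, had 218, 105, 127 and 349 CPM in the pre-dropout rats T353M, T389M, T391M and T407M. In normal rats its median was 70.1 CPM, between 0.119 and 313 CPM, and 15 of the 24 lay below the lowest pre-dropout rat while the other 9 lay within the pre-dropout range. The log2 fold change was 1.03 (SE 0.72, unadjusted p = 0.162, adjusted p = 0.9999 by edgeR), with 1.16 in males alone and 0.85 within class A. T407M carried much of it, since the value was 0.63 without that rat. The same rat had the highest summed level of pigment epithelium markers, 358 CPM, but had counts for only 4 of the 10 genes. By mean log2 CPM of these markers, the normal rats T414F, T393F, T419F and T404F were higher than T407M. The part of that tissue in the Abcb4 of T407M was not tested. Abcb4 has close paralogs in Abcb1a and Abcb1b, the drug exporters of the blood-retinal barrier, and the sharing of reads among the 3 is uncertain. Abcb4 made up 4.68 to 22.1% of the counts of the 3 genes in pre-dropout rats and 0.00517 to 27.2% in normal rats.

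Abcb11 and Pctp are named by the study among genes it selected on these rats with another read assignment, so their direction here is not independent evidence. Abcb11 had 3, 18, 0 and 13 counts in the pre-dropout rats T353M, T389M, T391M and T407M, and 8 of 24 normal rats had a count, between 1 and 94. Among the 8 normal males the count reached 3 at most, in T424M, and was 0 in the other 7. The log2 fold change was 1.05 (SE 1.65) without a covariate and 5.01 (unadjusted p = 0.0116, adjusted p = 1 by edgeR) with sex as a covariate, a value that depends on how edgeR treats the normal males at 0. With the neuron level as a covariate it was 2.87 (unadjusted p = 0.0286) and with the endothelial level 3.29 (unadjusted p = 0.0188, adjusted p of 0.775 or more in both, by edgeR), and with 1 pre-dropout rat left out it lay between 0.52, without T407M, and 1.56. Class A alone left too few counts for a test. Pctp had 8.67, 13.5, 7.83 and 1.29 CPM in the pre-dropout rats, and the normal rats had a median of 2.28 CPM, between 0 and 37.6 CPM. Its log2 fold change was -0.00057 (SE 1.47), and it took either sign among the alternatives, with 0.85 within class A.

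**Figure D2:**
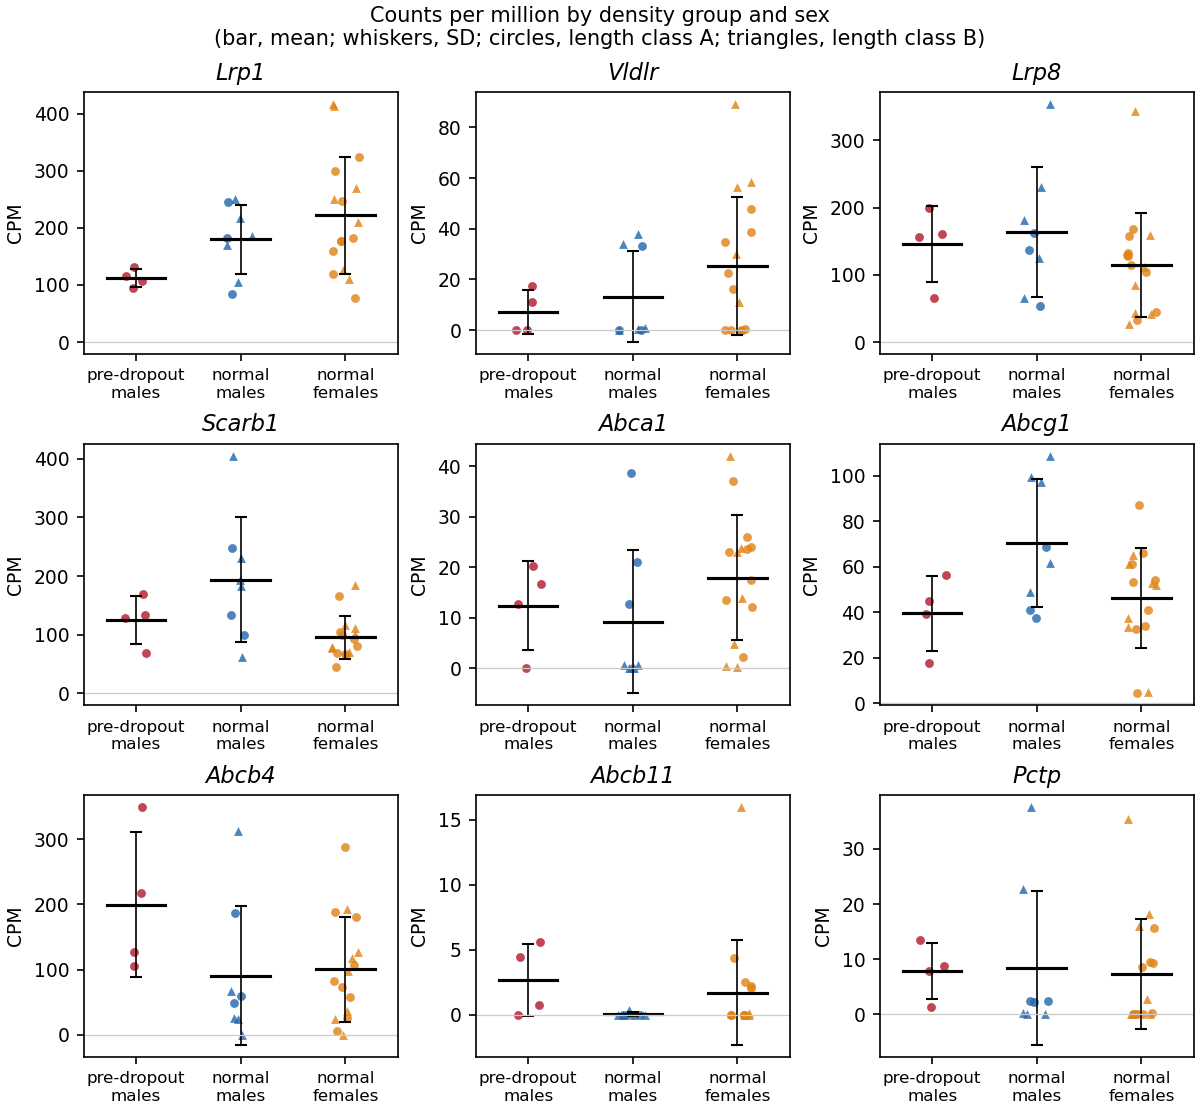
CPM of each gene in pre-dropout males (4 rats), normal males (8) and normal females (16), with the mean as a bar, the SD as whiskers, circles for length class A and triangles for class B. The 4 pre-dropout rats sat between 94.3 and 132 CPM for Lrp1, in the lower part of the normal range, and between 105 and 349 CPM for Abcb4, in its upper part.

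**Figure D3:**
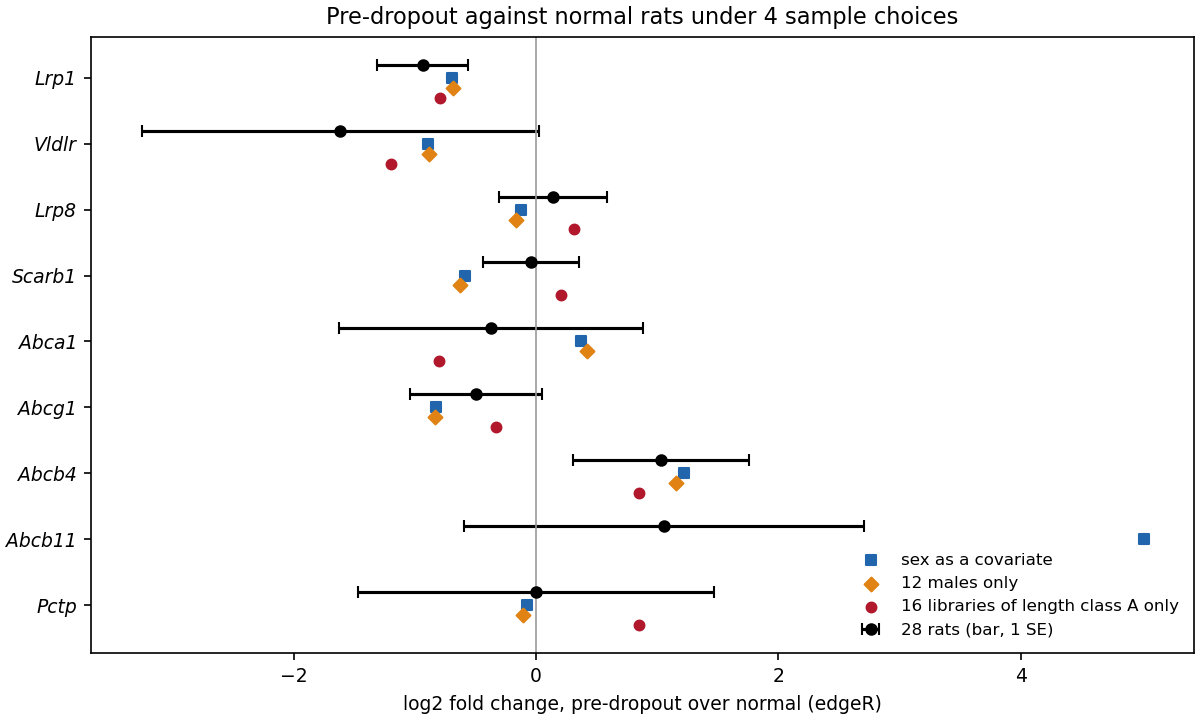
Log2 fold change of pre-dropout over normal rats by edgeR for each gene, from all 28 rats (black, bar of 1 SE), with sex as a covariate (squares), in the 12 males (diamonds) and in the 16 libraries of length class A (lower circles). Lrp1 stayed negative and Abcb4 positive in all 4, whereas Lrp8, Scarb1, Abca1 and Pctp lay on both sides of 0; for Abcb11 the last 2 choices left too few counts for a test.

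Other genes of lipid handling, in 9 lists with 107 genes tested, gave no call between the groups (0 of 107, beside the 0% of all genes). An unadjusted p under 0.05 was found for 5 of the 107, beside 2.86% of all genes (edgeR). Their median log2 fold change was -0.29, with 33 positive and 74 negative. Over all genes the median was -0.13 and 41.1% were positive. The most one-sided of the 9 lists were those of fatty acid uptake and of cholesterol synthesis. All 9 tested genes of endothelial lipases and fatty acid uptake were negative, with a median of -0.70, and 13 of 14 genes of cholesterol synthesis were negative, with a median of -0.40. Among these, the fatty acid transporter Slc27a1 had a log2 fold change of -0.88 (SE 0.79) and the sterol enzyme Fdps had -0.97 (SE 0.94). Flippases and other phospholipid carriers were positive in 9 of 15, with a median of 0.08. The flippase Atp10a had 408.7, 281, 261 and 186 CPM in the pre-dropout rats T353M, T389M, T391M and T407M, against a median of 167 CPM in normal rats, between 53.2 and 439 CPM (log2 fold change 0.69, SE 0.33, unadjusted p = 0.0396, adjusted p = 0.9999 by edgeR).

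Over all genes, 394 had an unadjusted p under 0.05 between the groups, with 27 positive and 367 negative (edgeR), so most genes with a small p were lower in pre-dropout rats. The groups held 4 and 24 rats, and the part of their unequal size in this imbalance was not tested. Of the 5 such genes in these lists, 3 had no count in any pre-dropout rat. These 3 passed the filter on low counts through normal rats alone, so they could only come out lower in pre-dropout rats. Ch25h, the enzyme that makes an oxysterol from cholesterol, had 0 counts there and 395 over 9 of 24 normal rats. With the counts of each group pooled, and 3 counts allowed for the 0, it was at least 16.6-fold lower. Apoc1, a small apolipoprotein, had 0 counts in pre-dropout rats and 124 over 9 normal rats, and was at least 5.22-fold lower in pooled counts. Slc27a3, a fatty acid transporter, had 0 counts in pre-dropout rats and 139 over 7 normal rats, and was at least 5.86-fold lower in pooled counts. These limits cover counting error alone, not the spread among rats, and the adjusted p was 0.9999 for each of the 3 genes by edgeR. In all 3 the normal median was 0 CPM, so most normal rats were at 0 as well and the groups overlapped. Pdzk1, the scaffold protein that holds Scarb1 at the cell surface in liver, had 2 counts over the pre-dropout rats, both in T389M, and 429 over 16 normal rats.

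In the remaining lists the genes with the smallest p did not separate the groups. They were the Wnt co-receptor Lrp5 (log2 fold change 0.38, SE 0.30) and Lrp4 (1.04, SE 1.04) among other LDL receptor relatives, and the receptor ligand Reln (-1.49, SE 1.44) among partners of these receptors. Apoe, the main apolipoprotein of neural tissue, had a log2 fold change of -0.29 (SE 0.33). The others were the sterol regulator Insig2 (-0.80, SE 0.52) and the nuclear receptor Rxrb (-0.87, SE 0.77), the exporters Abcc1 (-1.63, SE 1.02) and Abcb1a (0.43, SE 0.31), and the sterol carrier Stard3 (-2.95, SE 2.18).

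Within the normal range, the density of acellular capillaries ran from 5.90 to 14.5 per mm2, and none of the 8 members tested was called along it. The slope per 5 per mm2, with sex as a covariate, was positive for 6 of the 8 members tested and had no call in 13677 genes by edgeR (0%), with 1.12% of genes and none of the members at an unadjusted p under 0.05. The smallest p was that of Abcg1, with a log2 slope of 0.62 (SE 0.40, unadjusted p = 0.128, adjusted p = 1 by edgeR). Abcg1 had a median of 66.0 CPM in the 11 normal rats of at least 10 per mm2, between 37.2 and 109 CPM, and of 41.0 CPM in the 13 below, between 4.29 and 65.1 CPM. The pre-dropout rats, at a still higher density, lay between 17.6 and 56.6 CPM, below the median of those 11 rats. Lrp1, for which the pre-dropout rats were low, had a slope of 0.26 (SE 0.29). The widest errors were those of Pctp, with a slope of -1.44 (SE 1.48), and Vldlr, with 1.56 (SE 1.32), and Abcb11 had too few counts for this test.

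No member was called along blood glucose. Over the 28 rats, with sex as a covariate, 0 of 13800 genes were called by edgeR (0%), 3.80% had an unadjusted p under 0.05, and 0 of 9 members did. The log2 slope per 100 mg/dL was -0.14 (SE 0.12) for Lrp1, -0.08 (SE 0.12) for Scarb1, 0.03 (SE 0.14) for Lrp8, 0.04 (SE 0.17) for Abcg1 and 0.13 (SE 0.26) for Abcb4. In Vldlr, Abca1, Abcb11 and Pctp the SE was 0.42 to 0.61, so slopes of that size would not have been detectable. The 5 rats above 200 mg/dL had a median of 115 CPM for Lrp1, between 77.3 and 245 CPM, against 182 CPM in the 23 others, between 84.1 and 416 CPM. These 5 mix the density groups. T389M (106 CPM) and T391M (115 CPM) were pre-dropout rats. The normal rats among them, T392F, T446M and T370M, had 77.3, 185 and 245 CPM, beside a median of 184 CPM in all normal rats. For Lrp8 the 5 rats lay close together, between 126 and 199 CPM, inside the 27.5 to 354 CPM of the other 23.

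**Figure D4:**
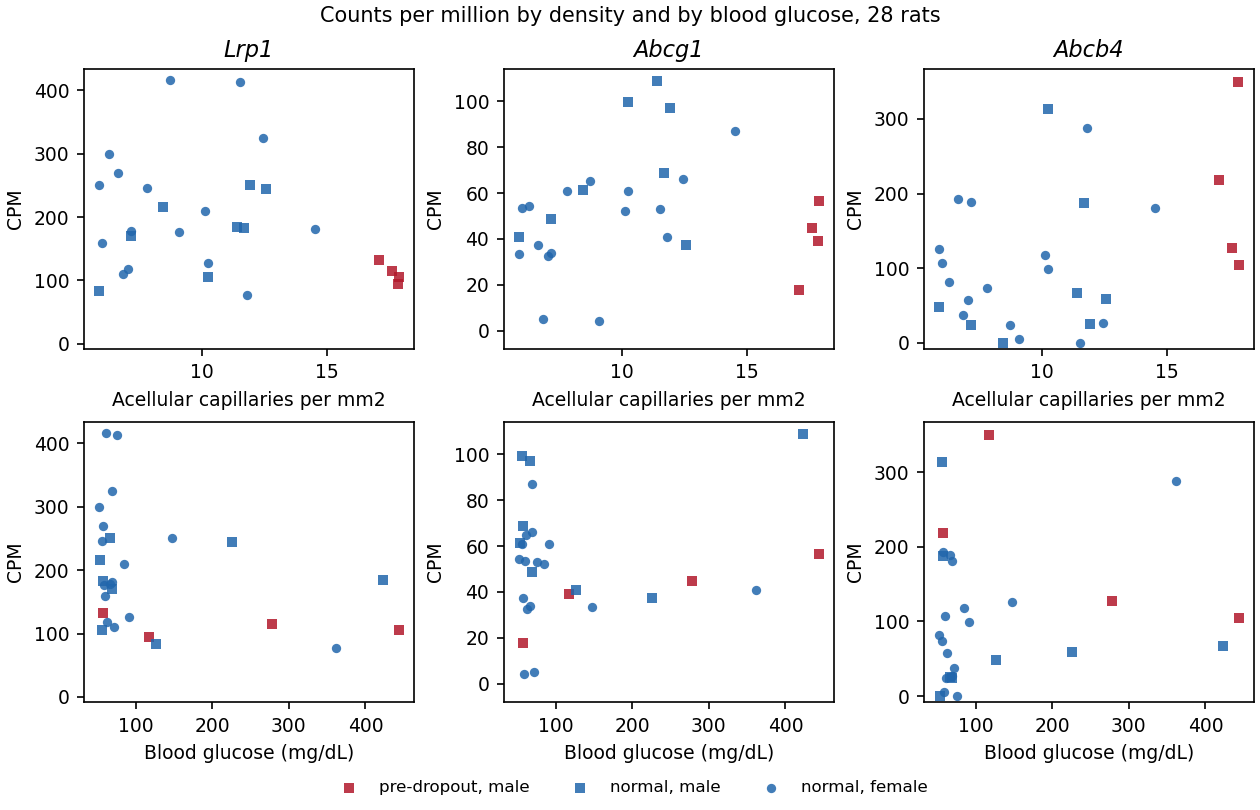
CPM of Lrp1, Abcg1 and Abcb4 against the density of acellular capillaries (upper row) and random blood glucose in mg/dL (lower row), with pre-dropout rats in red, normal rats in blue, squares for males and circles for females. No slope of these 3 genes passed the test; the 4 pre-dropout rats, all above 17 per mm2, lay between 94.3 and 132 CPM for Lrp1.

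Between the sexes Scarb1 gave the smallest p of the members. In the 24 normal rats, males had a lowest value of 62.3, a median of 188 and a highest of 405 CPM (n = 8), and females had 45.3, 86.5 and 185 CPM (n = 16). The ranges overlapped, and only males exceeded 185 CPM. The log2 fold change of males over females was 1.04 (SE 0.29, unadjusted p = 0.000999), but the adjusted p of edgeR was 0.347, and the gene was not called. Of 12162 genes tested, 3 were called (0.0247%) and 4.38% had an unadjusted p under 0.05, against 0 and 1 of the 8 members tested. Without T424M, the male with 405 CPM, the value was 0.80 (unadjusted p = 0.00871 by edgeR), and it was 0.87 within class A and 0.86 within class B. The endothelial marker level, as mean log2 CPM, was 9.32 ± 0.60 in normal males and 8.97 ± 0.55 in normal females (SD, n = 8 and 16). Its median was 9.21 in both sexes. The normal males highest in Scarb1, T424M (405 CPM), T411M (247 CPM) and T425M (230 CPM), also had the highest endothelial levels of all 28 rats. With that level as a covariate, added after the values were seen, the log2 fold change of Scarb1 was 0.64 (SE 0.27, unadjusted p = 0.0228, adjusted p = 0.9997 by edgeR). Over its 10 alternatives the adjusted p of edgeR or DESeq2 ran from 0.113 to 0.9997. The 4 pre-dropout males, at 69.0 to 170 CPM, overlapped both sexes. The other members had unadjusted p of 0.149 or more by edgeR, with 0.53 (SE 0.38) for Lrp8, 0.62 (SE 0.42) for Abcg1 and -0.29 (SE 0.29) for Lrp1. Since all pre-dropout rats are male, a sex difference enters the pooled comparison of density groups, and the value of Scarb1 there was -0.59 with sex as a covariate.

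In whole vessels, fewer cells of a type and less RNA per cell cannot be told apart, and the libraries differed in how much glial and neuronal RNA they held. For that reason each gene was also fitted against the mean log2 CPM of a marker list, a comparison added after the values were seen. Scarb1 followed the endothelial level. Its log2 slope was 0.83 per log2 unit (SE 0.20, adjusted p = 0.0043 by edgeR), so that rats with more endothelial RNA had more Scarb1. Of 13024 genes, 5.09% were called with a positive slope and 5.93% with a negative slope on the endothelial level, and 1 and 1 of the 8 members tested. Scarb1 stayed called without T424M (0.71, adjusted p = 0.0325) and in class A alone (0.91, adjusted p = 0.0146). In class B alone it was 0.71 with an adjusted p of 0.548, where 45 genes were called in all (edgeR throughout). Over 6 alternatives its adjusted p ran from 7.1e-07 to 0.548.

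Lrp1 ran the other way. Its slope was -0.65 (SE 0.20, adjusted p = 0.0312) on the endothelial level and 0.20 (SE 0.07, adjusted p = 0.0452) on the neuron level, both called by edgeR. On the neuron level 9.79% of 12742 genes were called with a positive slope and 5.38% with a negative slope, beside 1 and 0 members. Without T424M both calls were lost, with -0.60 (adjusted p = 0.0707) and 0.19 (adjusted p = 0.0676) by edgeR, and DESeq2 gave -0.29 (adjusted p = 0.385) and 0.08 (adjusted p = 0.514). Over 6 alternatives the adjusted p ran from 0.0056 to 0.572 on the endothelial level and from 0.0042 to 0.514 on the neuron level, with the sign kept in all. With the neuron level as a covariate, the difference of Lrp1 between pre-dropout and normal rats was -0.88 (SE 0.33), and with the endothelial level it was -0.72 (SE 0.33), beside -0.94 without either. The mean neuron level itself was 3.59 ± 1.12 log2 CPM in pre-dropout rats and 3.57 ± 1.70 in normal rats (SD, n = 4 and 24).

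Vldlr had the steepest slopes, 0.89 (SE 0.34, adjusted p = 0.0763) on the neuron level and -2.92 (SE 1.05, adjusted p = 0.0671) on the endothelial level by edgeR. Neither was called with all 28 rats, and both were called with the length class as a covariate (1.37, adjusted p = 0.00616, and -4.85, adjusted p = 0.00615). Over the 6 alternatives the adjusted p ran from 0.00616 to 0.430 on the neuron level and from 0.00615 to 0.578 on the endothelial level. Vldlr lay below 1 CPM in 13 rats and above 10 CPM in 15, with no rat between. On the levels of Müller glia and astrocytes and of pericytes and smooth muscle, few genes were called in either direction (0.238% of 13024 and 0.246% of 13800) and 0 members. All these slopes compare genes within the same libraries and share their scaling. Whether neuronal or endothelial RNA makes up the difference in a member was not tested.

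**Figure D5:**
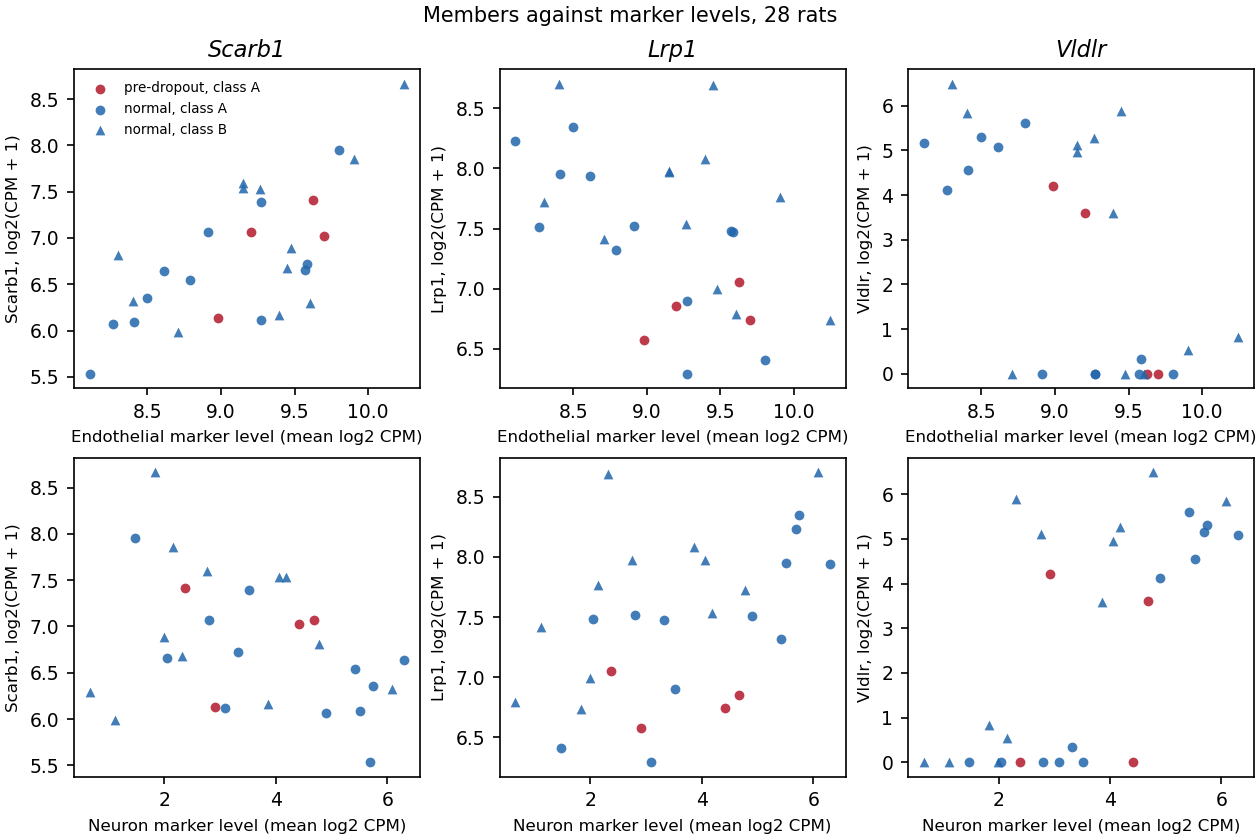
Scarb1, Lrp1 and Vldlr, as log2(CPM + 1), against the mean log2 CPM of endothelial markers (upper row) and of rod and inner retinal neuron markers (lower row) in 28 rats; red, pre-dropout; blue, normal; circles, length class A; triangles, class B. Scarb1 rose with the endothelial level (slope 0.83), Lrp1 fell (slope -0.65), and Vldlr was split between 13 rats below 1 CPM and 15 above 10 CPM.

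The spread among rats also separated the members. In normal rats the coefficient of variation of CPM was 0.44 for Lrp1, 0.48 for Abcg1, 0.63 for Scarb1 and 0.66 for Lrp8, below the median of 0.92 over tested genes. It was 0.89 for Abca1 and 0.90 for Abcb4, just below that median, and 1.16, 1.47 and 2.89 for Vldlr, Pctp and Abcb11, above it. Some members were close to absent in some of the deepest libraries. Among the 13 libraries of at least 4000000 counts, Vldlr, Abca1, Abcb4 and Pctp each had 5 counts or fewer in at least 1 and 100 counts or more in another. That was 4 of 9 members, beside 62.7% of all tested genes, so such swings are common in these tables.

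The examples show its size. Vldlr had 0 counts in T420F and 594 in T414F. Abcb4 had 1 count each in T425M and T430F, where its paralog Abcb1a had 18813 and 13739, but 2405 counts in T424M. Pctp had 1 count in T424M and 250 in T425M. Abca1 was at 5 counts or fewer in 8 of the 12 normal libraries of class B and in 1 of the 12 of class A. Its CPM was 0.626 at the median in class B and 22.1 in class A, so for Abca1 the class goes with the level, and the part of the class in it was not tested.

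The members were not closely coupled to each other. Among the 6 with a count in at least 20 rats (Lrp1, Lrp8, Scarb1, Abca1, Abcg1 and Abcb4), the highest Spearman's rank correlation of CPM over 28 rats was 0.44, between Lrp8 and Scarb1, and the lowest was -0.42, between Lrp1 and Abcb4. Abca1 and Abcg1, the 2 LXR targets, had a rank correlation of 0.02. These values describe libraries that share depth and scaling.

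Among 9827 candidate genes, those most like each member by the same measure over the 28 rats were as follows. Lrp1 was most like Cadm1, a cell adhesion molecule (0.79), Slc1a3, the glutamate transporter of Müller glia and astrocytes (0.77), and Tspan3 (0.77). Scarb1 was most like P3h2, a collagen-modifying enzyme (0.76), Cnppd1 (0.76) and the metal ion transporter Slc39a8 (0.75). Lrp8 was most like Rfc1, a subunit of the replication clamp loader (0.76), Smg6, a nuclease of nonsense-mediated decay (0.74), and Zcchc8 (0.72). Abca1 was most like Fam65b (0.79), Uckl1 (0.77) and N4bp2l1 (0.77). For Abcg1 the values were lower, with 0.68 for Crtc2, a coactivator of CREB, 0.67 for Parp8 and 0.66 for Sbno2. Abcb4 was most like Txndc17 (0.70), Mgat1, an enzyme of N-glycan synthesis (0.68), and the endosomal adaptor Appl1 (0.67). None of these neighbors is another member.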

How the data were processed

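RNA of the retinal vasculature of 28 Nile rats was sequenced from LM-seq libraries. The authors deposited expected counts (estimates with fractions, not scaled between libraries) and TPM for 18970 genes with mouse symbols. The tables were taken as output of the authors' comparative RNA-seq pipeline (CRSP), which assigns reads by way of mouse transcripts. The authors' read assignment to the Nile rat genome itself was not used here, and the aligner and build behind these tables are not given in the sources used here. Divergence from mouse and paralogs can therefore shift a gene's count, and no coordinates or sequences are given.

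Expected counts were rounded and tested by the quasi-likelihood method of edgeR 4.0.16 under R 4.3.3, after TMM scaling and filterByExpr (minimum count 10), with Benjamini-Hochberg adjustment over all genes tested. CPM are counts over TMM-scaled library totals. Groups came from the density labels. Calls needed an adjusted p below 0.05 and, for pre-dropout and sex, a change over 2-fold. Slopes on density (24 normal rats) and on glucose (28) had sex as a covariate. The glucose unit was taken from the study's methods. Alternatives used DESeq2 1.42.0 and limma 3.58.1, other scalings, filters, covariates and subsets, and the omission of each pre-dropout rat. Tests were checked on simulated counts, and the check had to pass only at a spread among rats below that of these data. Their biological coefficient of variation by edgeR was 1.32 in the comparison of density groups. Named genes are the 9 members, the 2 genes of smallest p per pathway list, the first 2 genes of each marker list in the tables (Hba-a1 is not among them) and the 3 genes most like each member counted in at least 20 rats. A few genes that this rule names are not reported here. Marker slopes, length classes and the list of genes near 0 in deep libraries were added after the data were seen. The members and lists were chosen with earlier results of these data known. Rats are separate animals, and permutation tests and figures used NumPy 2.4.6, SciPy 1.17.1 and matplotlib 3.10.9 under Python 3.11.15.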

Additional observations from a re-analysis of the deposited data

How the results depend on the processing

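No paired analysis was possible because the 2 density groups share no rat and the labels give no replicate numbers. None of the 9 members was called between density groups, along density or glucose, or between sexes under any of the alternatives in which it was tested. Of 368 values of members in these 4 comparisons under alternatives, 329 kept their sign and 39 changed it; the cause was not tested.

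Over all genes, calls for pre-dropout against normal rats numbered 72 with no filter on low counts, 7 with DESeq2, 4 with limma-voom 1 with the neuron level as a covariate and 50 with the endothelial level, in place of 0. For density there were 45 without the filter. For glucose there were 152 without the filter, 21 with DESeq2 and 2 in normal rats alone, and for sex 26 with DESeq2 in place of 3. For the endothelial slope there were 2251 with DESeq2 and 45 in class B alone in place of 1435, and for the neuron slope 16 in class B alone in place of 1934. In the 4 fits that omit 1 pre-dropout rat, 0 genes were called by edgeR between density groups.

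In the comparison of density groups, Pctp changed sign to 0.028 with no filter, 0.10 with upper-quartile scaling, 1.496 with limma-voom, 0.72 and 1.89 with limma on log2(TPM + 1) and log2(TPM + 0.1), 1.42 with glucose as a covariate, 0.035 with the neuron level and 0.85 within class A. Scarb1 changed sign to 0.0047, 0.39, 0.028, 0.029, 0.0076 and 0.20 under upper-quartile scaling, limma-voom, the 2 TPM fits, the neuron level and class A. Lrp8 was -0.12 with sex as a covariate and -0.16 in males alone, where Abca1 was 0.37 and 0.42. Abca1 was also 0.52 with the endothelial level as a covariate. With 1 pre-dropout rat left out, values lay between -0.033 and 0.40 for Lrp8, between -0.22 and 0.16 for Scarb1, between -0.62 and 0.13 for Abca1 and between -0.37 and 0.38 for Pctp.

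For glucose, Lrp8 was -0.0087 with DESeq2's size factors, -0.0087 without the 2 libraries under 1000000 counts and -0.0068 in normal rats alone, where Abca1 was -0.26 and Abcb11 -1.11. Abca1 was -0.022 without those 2 libraries. With no covariate, Vldlr was -0.14, Scarb1 0.021, Abca1 -0.14 and Abcb11 -0.040. Between the sexes, Abcb4 was 0.0070 with DESeq2's size factors and 0.0053 without the 2 libraries, Pctp was -0.25 with the length class as a covariate and -1.03 in class A, and Abca1 was 0.27 in class A.

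For marker slopes, Abcg1 was -0.0074 (neuron) and 0.022 (endothelial) with DESeq2, and Pctp was 0.17 and -0.18 with the length class as a covariate and 0.51 and -0.52 in class A. Abcb4 was 0.12 (neuron) in class B and -0.095 (endothelial) without T424M. A slope came to be called for Lrp8 with DESeq2 (endothelial, 0.81), for Vldlr with DESeq2 (endothelial, -2.54) and in class A (1.43 and -6.08), and for the neuron slope of Scarb1 with DESeq2 (-0.31), in class A (-0.25) and without the 2 shallow libraries (-0.24). Lrp1 was not called in class B (0.25 and -0.68).

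Relative to the median over all genes of -0.13, limma on TPM moved that median to 0.08 and 0.21 with pseudocounts of 1 and 0.1, and the endothelial level as a covariate moved it to 0.01. The depth of 153108 counts in T410F allows up to 19.6 CPM behind a 0, so zeros of Vldlr, Abcb11 and Pctp there say little.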
